A study of Oryza sativa with 6 samples.

Results

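The genes described here are the 7 members of a diterpenoid gene cluster on chromosome 2 of rice, which takes part in the synthesis of phytocassanes and oryzalides. They were chosen by identifier, as the rows for CYP76M8 (Os02g0569400), CYP76M7 (Os02g0569900), KSL7 (Os02g0570400), CYP71Z7 (Os02g0570700), CPS2 (Os02g0571100), KSL5 (Os02g0571300) and KSL6 (Os02g0571800), and all 7 were found among the 36844 genes of the deposited count table. RNA sequencing had been done on roots of 2 cultivars, 9311 and Huanghuazhan (HHZ), with 3 libraries for each. Plants of both cultivars were grown in hydroponic culture, moved at 50 days after germination (DAG) to solution without NH4NO3 for 2 days, and returned to solution with 1 mM NH4NO3 for 3 h before the roots were frozen. The cultivars thus differ in genotype and share the whole treatment, and no library came from roots without nitrogen withdrawal or from other tissues. The sources used here describe no inoculation and do not say whether the plants were free of infection. The labels do not say whether the 3 libraries of a cultivar came from separate plants or containers, so the p-values measure the spread between these libraries.

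Phytocassanes and oryzalides are labdane-related diterpenoids with antimicrobial activity, and phytocassanes are known as phytoalexins that rice makes under attack and also releases from its roots. Synthesis starts from geranylgeranyl diphosphate. CPS2 cyclizes it to ent-copalyl diphosphate, and class I diterpene synthases of the KSL family turn this into different hydrocarbons: KSL7 makes ent-cassadiene, the precursor of the phytocassanes, and KSL6 makes ent-isokaurene, the precursor of the oryzalides. KSL5 is known to make different products in its japonica and indica forms. Cytochrome P450 enzymes then oxidize these skeletons. CYP76M7 and CYP76M8 hydroxylate ent-cassadiene, CYP76M8 with several other activities as well, and CYP71Z7 acts on the same skeleton. Gibberellin synthesis uses the same ent-copalyl diphosphate intermediate, through other genes.

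The total counts lay between 16622441 and 22646162 per library. Reads of both cultivars were aligned to one japonica reference, and expression is given in CPM, the counts a gene would have in a library of 1000000 counts after TMM scaling of the library sizes in edgeR. At these depths 3 counts correspond to 0.128 to 0.175 CPM, which is taken as the limit below which a gene cannot be told from absence. Over the whole transcriptome, HHZ replicates 1 and 2 resembled each other (chi-square per degree of freedom of 22.3) more than either resembled HHZ replicate 3 (98.6 and 84.5). The members' results are therefore also given without HHZ replicate 3. Of the 22554 genes with enough counts for the test, 1468 differed between the cultivars at an adjusted p-value under 0.05 (quasi-likelihood F-test of edgeR, p-values adjusted over all genes by the Benjamini-Hochberg method).

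CPS2, KSL7 and CYP76M8 were expressed more highly in 9311 roots and passed the test. Thus 3 of the 7 members, of which 4 were tested, were called, where 3.25% of all genes tested were called higher in 9311. CYP76M7 was tested and did not pass, CYP71Z7 had too few counts to be tested, and KSL5 and KSL6 were practically without counts in both cultivars. In 5 of the 7 members every 9311 library lay above every HHZ library. These were the 4 members tested and, on few counts, the untested CYP71Z7. Among all genes tested this held for 13.0%. The counts of the 7 genes together summed to 104, 81 and 414 in HHZ replicates 1, 2 and 3, and to 1935, 4331 and 862 in the corresponding 9311 libraries. In CPM these sums were 4.54, 3.45 and 19.0 in HHZ and 93.1, 228 and 50.4 in 9311. The means were 9.01 ± 8.70 CPM (SD, n = 3) in HHZ and 124 ± 92.5 CPM (SD, n = 3) in 9311, a ratio of 13.7. Leaving out HHZ replicate 3 raised this ratio to 31.0, and leaving out 9311 replicate 2, the library with the highest sum, lowered it to 7.96. In bulk root tissue, fewer cells of the type that expresses the genes and less RNA per cell cannot be told apart. Whether reads of diverged alleles in either cultivar failed to align to the japonica reference was not tested for any of the 7 genes.

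CPS2, which makes the ent-copalyl diphosphate that the KSL enzymes use, was close to the detection limit in HHZ. Its expression was 0.567, 0.128 and 0.184 CPM in HHZ replicates 1, 2 and 3, from 13, 3 and 4 counts, and 8.42, 39.1 and 6.55 CPM in 9311 replicates 1, 2 and 3. The lowest 9311 library lay 11.5-fold above the highest HHZ library. The fitted log2 fold change of CPS2 was 5.91 (standard error 0.989, adjusted p = 0.0183 in edgeR), a fold of 60.2. With only 20 counts over the HHZ libraries against 1031 in 9311, counting error alone allows a ratio between 39.8 and 101 (exact 95% interval), and the spread between libraries comes on top of it. With all libraries, CPS2 had the largest log2 fold change among the members tested, followed by CYP76M8 at 4.80 (standard error 1.01). Without HHZ replicate 3 the order was reversed, with 6.63 for CYP76M8 and 5.66 for CPS2. Whether these genes differ in the size of the cultivar difference was not tested. Of all genes tested with all libraries, 192, CPS2 included, had a log2 fold change of at least that of CPS2 (0.851%).

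KSL7, the ent-cassadiene synthase, had counts in every library. Its expression was 2.49, 2.38 and 6.25 CPM in HHZ replicates 1, 2 and 3 and 51.9, 106 and 23.4 CPM in 9311 replicates 1, 2 and 3. The groups did not overlap, with the lowest 9311 library 3.74-fold above the highest HHZ library, although the 9311 libraries themselves spread over a 4.55-fold range. The mean of the 9311 libraries was 60.6 ± 42.2 CPM (SD, n = 3), and that of the HHZ libraries 3.71 ± 2.20 CPM. The log2 fold change of KSL7 was 4.03 (standard error 0.682, adjusted p = 0.0191 in edgeR), or 16.3-fold.

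**Figure D1:**
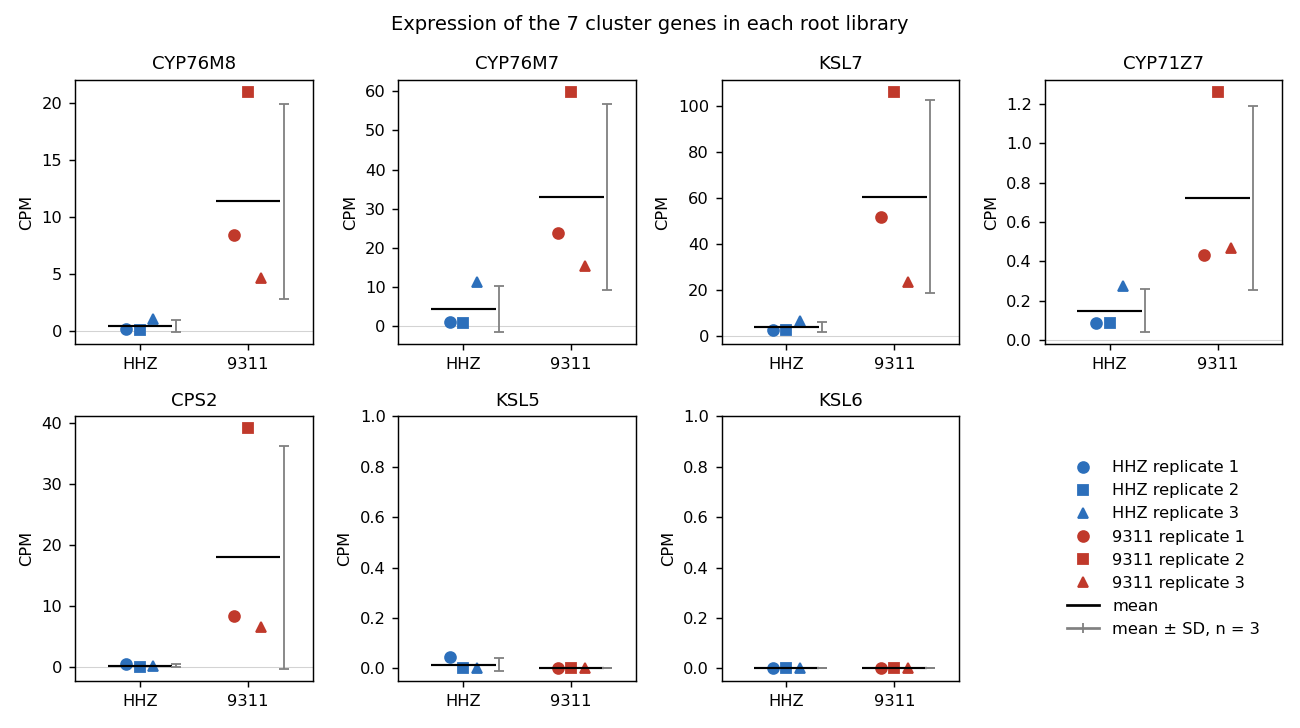
Expression in CPM of the 7 cluster genes, with 1 panel and 1 linear scale per gene and 1 point per library (HHZ blue, 9311 red, marker shape for the replicate). The black line is the mean and the grey bar the mean ± SD (n = 3). In 5 panels every 9311 point lies above every HHZ point and 9311 replicate 2 is highest, while KSL5 and KSL6 stay at or next to 0.

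Of the P450 genes, CYP76M8 passed the test and CYP76M7 did not. CYP76M8 was expressed at 0.175, 0.0425 and 1.01 CPM in HHZ replicates 1, 2 and 3, from 4, 1 and 22 counts, and at 8.47, 21.0 and 4.68 CPM in 9311 replicates 1, 2 and 3. HHZ replicate 3 was thus the only HHZ library of CYP76M8 clearly above the limit of 3 counts, and it was still 4.62-fold below the lowest 9311 library. The log2 fold change was 4.80 (standard error 1.01, adjusted p = 0.0418 in edgeR), or 27.9-fold.

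CYP76M7 was the member in which HHZ replicate 3 came nearest to 9311. Its expression was 1.18, 0.808 and 11.3 CPM in HHZ replicates 1, 2 and 3 and 23.8, 59.9 and 15.3 CPM in 9311 replicates 1, 2 and 3. HHZ replicate 3 lay 14.0-fold above HHZ replicate 2, and the lowest 9311 library only 1.35-fold above HHZ replicate 3. The log2 fold change of CYP76M7 was 2.90 (standard error 1.07), with an adjusted p of 0.189 in edgeR. Without HHZ replicate 3, the log2 fold change was 5.03 and the adjusted p 0.00859 in edgeR. Whether CYP76M8 and CYP76M7 differ from each other in the size of the cultivar difference was not tested, and reads that align equally well to close P450 copies could be missing from either count.

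CYP71Z7, the third P450 gene, was expressed at a trace level. It had 2, 2 and 6 counts in HHZ replicates 1, 2 and 3 and 9, 24 and 8 counts in 9311 replicates 1, 2 and 3, or 0.0851 to 0.276 CPM in HHZ and 0.433 to 1.26 CPM in 9311. The libraries did not overlap, with a gap of 1.57-fold. CYP71Z7 did not reach the minimum count for the test, and with no filter on low counts its log2 fold change was 2.24 (adjusted p = 0.158 in edgeR). The summed counts of 41 in 9311 and 10 in HHZ give a ratio of 4.91, for which counting error alone allows 2.42 to 11.0 (exact 95% interval).

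Neither KSL5 nor KSL6, the diterpene synthases outside the cassadiene step, was detected above the limit of 3 counts. KSL5 had 1 count in HHZ replicate 1 and 0 counts in the other 5 libraries, and KSL6 had 0 counts in every library. With the upper limit for a count of 0 set at 3 counts, a one-sided 95% bound, undetected expression could reach 0.128 to 0.175 CPM depending on the library, so no difference between the cultivars was detectable for KSL5 and KSL6 at this depth. These limits refer to reads counted on the japonica gene models. Whether reads of diverged KSL5 or KSL6 alleles failed to align was not tested.

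The 5 members with counts had a similar order among the 9311 libraries, and how many other genes have this order was not counted. 9311 replicate 2 was highest for all 5, and 9311 replicate 3 was lowest for CPS2, KSL7, CYP76M7 and CYP76M8, while for CYP71Z7 replicate 1 was lowest. From the lowest to the highest 9311 library, CPM rose 5.97-fold for CPS2, 4.55-fold for KSL7, 4.49-fold for CYP76M8, 3.91-fold for CYP76M7 and 2.91-fold for CYP71Z7. This spread was wide for these libraries. The SD of log2(CPM + 1) over the 9311 libraries was 1.31 for CPS2, 1.07 for KSL7, 0.988 for CYP76M8 and 0.970 for CYP76M7, against a median of 0.188 over all genes tested and a 90th percentile of 0.466. The HHZ libraries had another order. HHZ replicate 3 was highest for KSL7, CYP76M7, CYP76M8 and CYP71Z7, whereas for CPS2 it was HHZ replicate 1, on the few counts given above. The SD over the HHZ libraries was 1.53 for CYP76M7, 0.623 for KSL7, 0.505 for CYP76M8 and 0.256 for CPS2, against a median of 0.206 and a 90th percentile of 0.612. The added 1 compresses the SD at low CPM, as for CYP76M8 and CPS2 in HHZ. From the lowest to the highest HHZ library, CPM rose 23.8-fold for CYP76M8, 14.0-fold for CYP76M7 and 4.44-fold for CPS2. The rise was 3.24-fold for CYP71Z7 and 2.62-fold for KSL7. For CYP76M8, CPS2 and CYP71Z7 these folds rest on few counts.

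The makeup of the cluster within a library does not depend on the scaling between libraries. KSL7 held 55.8%, 46.7% and 46.4% of the counts of the 7 genes in 9311 replicates 1, 2 and 3, and CYP76M7 held 25.6%, 26.3% and 30.4%. The share of CYP76M8 was nearly the same in the 3 libraries (9.20 ± 0.0966%, SD, n = 3), although its CPM differed 4.49-fold among them, and that of CPS2 was 13.1 ± 4.07% (SD, n = 3). These shares are of raw counts without correction for transcript length, so they do not rank the genes by transcript number.

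In HHZ the makeup depended on the library. CYP76M7 held 26.0% of the counts in HHZ replicate 1 (95% Wilson interval 18.5% to 35.1%) and 23.5% in replicate 2 (15.6% to 33.8%), both near the 9311 shares. In HHZ replicate 3 it held 59.4% (54.6% to 64.0%), and the share of KSL7 was 32.9% (28.5% to 37.5%) against 54.8% and 69.1% in HHZ replicates 1 and 2. CPS2 held 0.966% of the counts in HHZ replicate 3 (0.376% to 2.46%) and 12.5% in HHZ replicate 1 (7.45% to 20.2%). By counts, HHZ replicate 3 had more of KSL7 and the CYP76M genes than the other HHZ libraries. For CPS2 its 4 counts lay between the 13 of HHZ replicate 1 and the 3 of HHZ replicate 2, and all of these are few. The intervals cover counting error only.

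**Figure D2:**
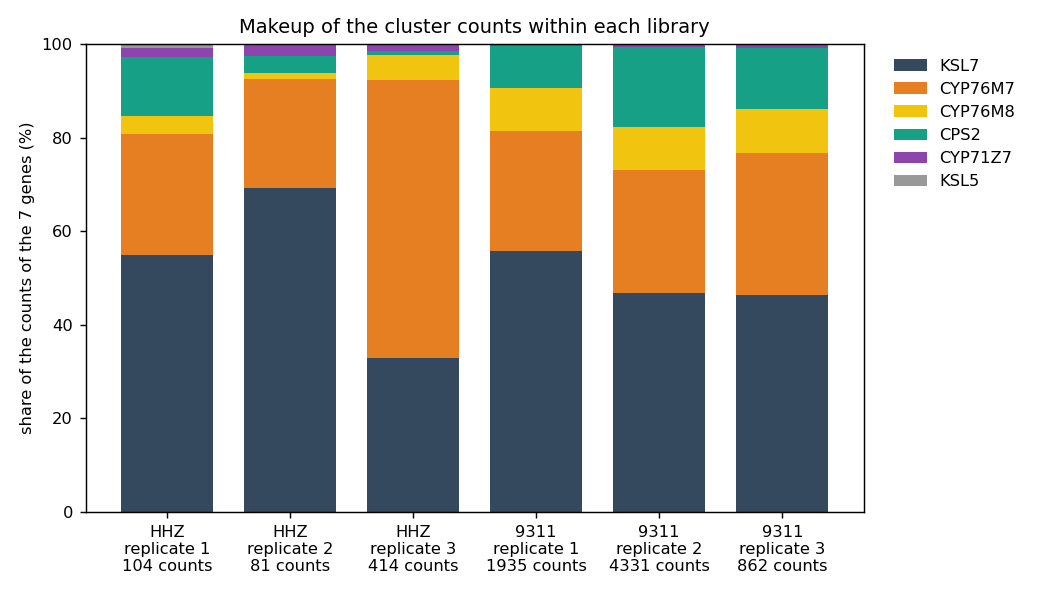
Share of each gene in the counts of the 7 cluster genes, in percent, as 1 stacked bar per library with the number of counts under it. The 9311 bars and those of HHZ replicates 1 and 2 are led by KSL7 (46.4% to 69.1%), and HHZ replicate 3 is led by CYP76M7 (59.4%).

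The rows around the members were compared in the same way. Between the identifiers Os02g0568500 and Os02g0572500 the count table holds 16 further rows, of which 5 were tested and 2 were called, both higher in 9311. Of all genes tested, 3.25% were called higher in 9311. Os02g0569000, the row just before CYP76M8, had 0.131, 0.255 and 0.920 CPM in HHZ replicates 1, 2 and 3 and 7.79, 17.7 and 2.51 CPM in 9311 replicates 1, 2 and 3. Its log2 fold change was 4.42 (standard error 0.946, adjusted p = 0.0443 in edgeR), and the order of its 9311 libraries was that of CYP76M8. Os02g0569000 kept its call only without 9311 replicate 3 or HHZ replicate 3, and without any of the other 4 libraries its adjusted p in edgeR was 0.113 to 0.166. Its log2 fold change was 3.56 without 9311 replicate 2 and 5.53 without HHZ replicate 3.

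Os02g0570900, between CYP71Z7 and CPS2, had 1, 0 and 1 counts in HHZ replicates 1, 2 and 3 and 35, 115 and 22 counts in 9311 replicates 1, 2 and 3 (adjusted p = 0.0147 in edgeR). The adjusted p was 0.0597 without HHZ replicate 1 and 0.0654 without HHZ replicate 2. The log2 fold change of Os02g0570900 was 6.41 with all libraries and 5.40 without 9311 replicate 2. Its summed counts give a ratio of 103, for which counting error alone allows 28.1 to 857 (exact 95% interval). The next row, Os02g0571000, had 6, 22 and 1 counts in 9311 and 0 counts in all HHZ libraries, too few for the filter of the edgeR test. DESeq2, which tested Os02g0571000, called it (adjusted p = 0.0186), and edgeR with no filter did not (adjusted p = 0.154). The strand on which reads were counted is not given in the sources used here, so for any of these rows that overlaps a neighbour, the counts of both cannot be told apart.

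Of the outermost rows with counts, Os02g0568600 on one side and Os02g0572200 and Os02g0572400 on the other were tested and not called, and Os02g0572300 and Os02g0572050 had too few counts for the test. For Os02g0572400 the mean of the 9311 libraries was 190 ± 43.5 CPM (SD, n = 3) and that of the HHZ libraries 128 ± 51.0 CPM, with overlapping libraries and a log2 fold change of 0.57 (adjusted p = 0.350 in edgeR). Without HHZ replicate 3, Os02g0572400 was called higher in 9311, with a log2 fold change of 0.93 and an adjusted p of 0.0393 in edgeR. Os02g0568600, with a mean of 1.65 ± 0.344 CPM (SD, n = 3) over the 9311 libraries and of 0.694 ± 0.405 CPM over the HHZ libraries, which did not overlap, had a log2 fold change of 1.24 (adjusted p = 0.240 in edgeR). Of the other rows, Os02g0571900 had 1 count, and 7 had 0 counts in all libraries. A table of RefSeq genes for the rice assembly ASM3414082v1 has the names of all 7 members as synonyms. It places 6 of them on chromosome 2 in the order of the identifiers, and gives the name CYP76M7 to a gene on chromosome 6. It matched 0 of the member identifiers, so the pairing of names and rows rests on the given identifiers for all 7 members.

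**Figure D3:**
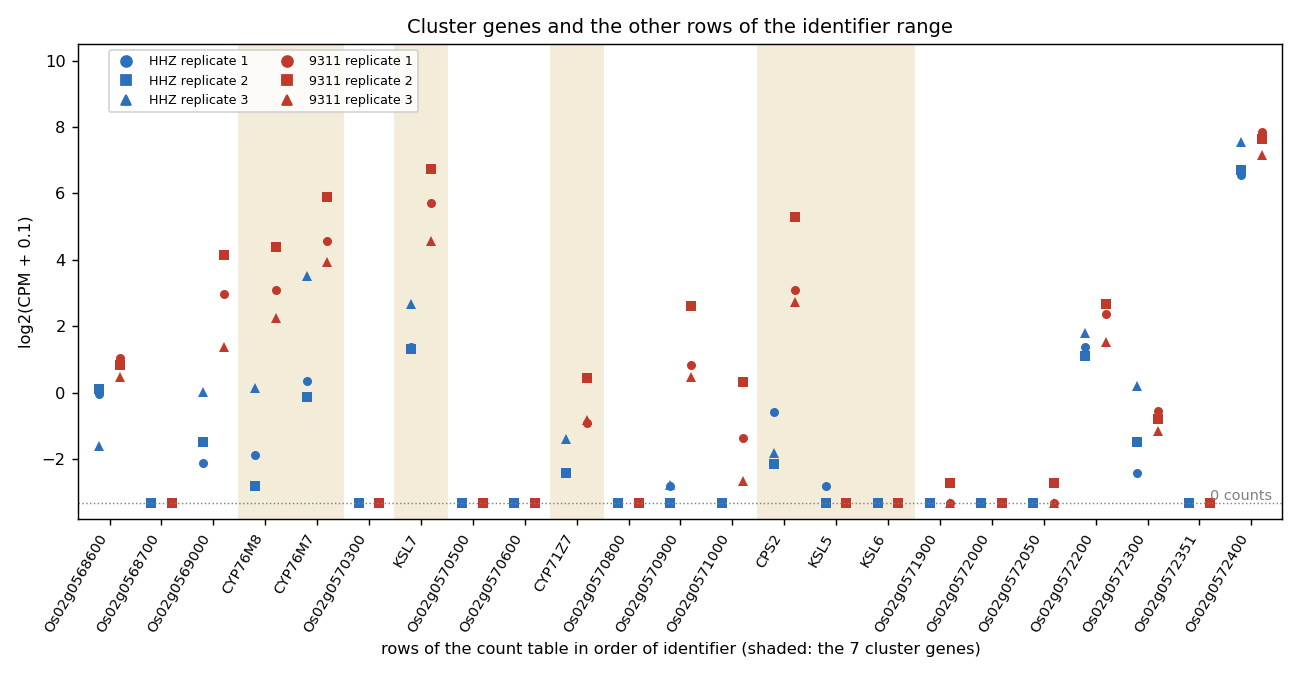
Expression as log2(CPM + 0.1) of the 7 members (shaded) and the 16 further rows of the identifier range, in identifier order, with 1 point per library (HHZ blue, 9311 red, marker shape for the replicate). The dotted line marks 0 counts. All 9311 points lie above all HHZ points at 5 members, at Os02g0568600, Os02g0569000, Os02g0570900 and Os02g0571000, and the points of Os02g0572400 at the right end overlap.

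The calls of single members depended on individual libraries, while the direction for CPS2, KSL7, CYP76M8 and CYP76M7 was the same in every fit run. In the fits that each left out 1 library, the log2 fold change of CPS2 lay between 4.64 (without 9311 replicate 2) and 6.81 (without HHZ replicate 1), and CPS2 lost its call without HHZ replicate 2 (adjusted p = 0.0861 in edgeR). That of KSL7 lay between 3.34 (without 9311 replicate 2) and 4.62 (without HHZ replicate 3), and it lost its call without 9311 replicate 1, HHZ replicate 1 or HHZ replicate 2, with adjusted p-values in edgeR of 0.0599, 0.0720 and 0.0868. CYP76M8, with log2 fold changes from 4.01 (without 9311 replicate 2) to 6.63 (without HHZ replicate 3), kept its call only without HHZ replicate 3, when its adjusted p was 0.00974, and had values of 0.0566 to 0.134 when another library was left out. Without HHZ replicate 3, CPS2, KSL7, CYP76M8 and CYP76M7 were all called, where 11.9% of all genes tested were called. This share of all genes was 3.54%, 3.35% and 4.97% without 9311 replicates 1, 2 and 3, 4.01% and 3.32% without HHZ replicates 1 and 2, and 2.08% with the replicate number as a block. With all libraries it was 11.2% in DESeq2, 6.59% in limma-voom, 6.49% with RLE factors, 6.43% with library totals, 4.95% with no filter and 2.80% with at least 10 counts required in each library. Every log2 fold change of these 4 genes in these fits, in DESeq2, in limma-voom and with other scaling, filters and the replicate block was positive.

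**Figure D4:**
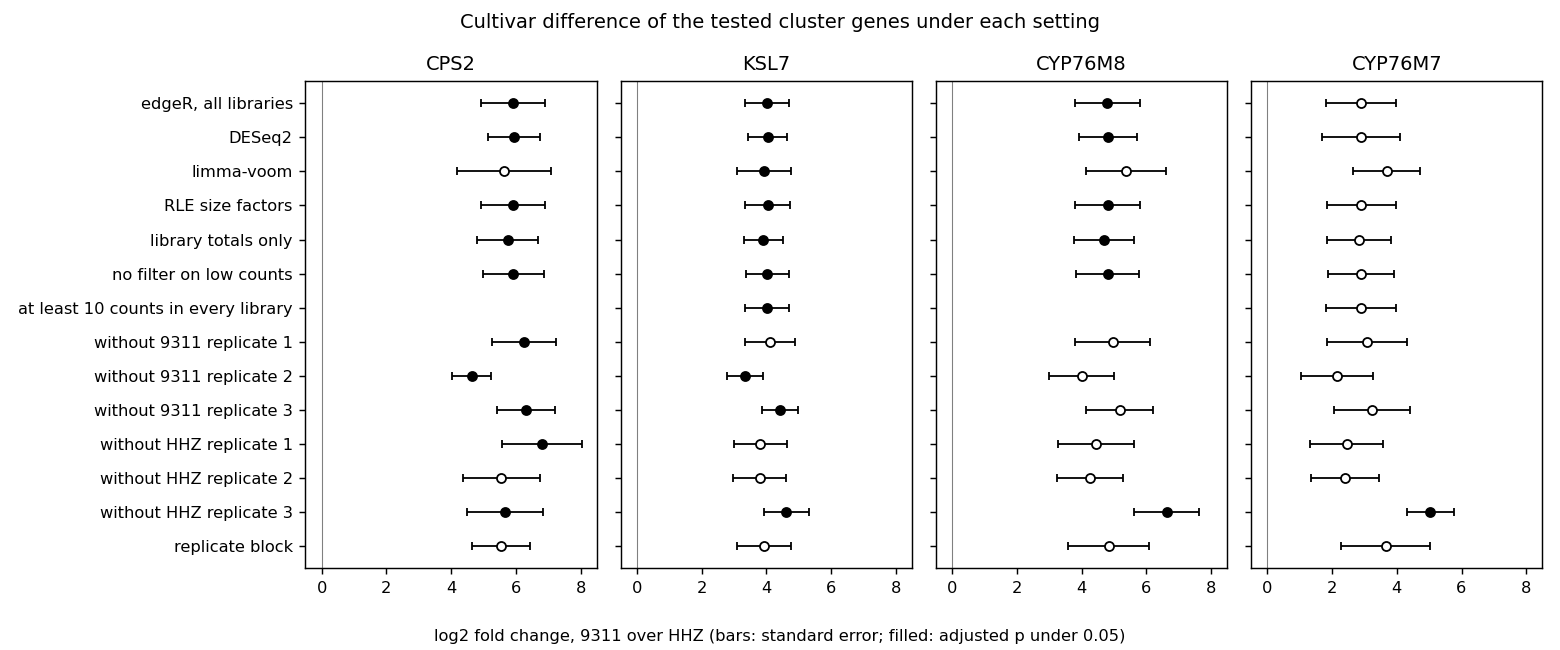
Log2 fold change of 9311 over HHZ for the 4 members tested, under each setting, with the standard error as the bar and filled points for an adjusted p under 0.05. All points lie to the right of 0, CPS2 between 4.64 and 6.81 and CYP76M7 between 2.15 and 5.03, and most points of CYP76M7 are open.

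For the rest of the diterpenoid pathway, a list of 28 identifiers was drawn up from background knowledge of rice genes for the other P450 genes of the cluster, other phytoalexin genes, gibberellin synthesis, the plastid pathway that makes the isoprenoid precursors, and transcription factors known to act on these genes. The identifiers are not paired with names in the sources used here, so the genes are given as counts only. Of the 28 genes, 22 were tested and 2 were called, both higher in 9311, of which 1 is Os02g0569000, where 6.51% of all genes tested were called. Their median log2 fold change was 0.52, against -0.01 over all genes tested. Among the 8 other phytoalexin genes, 6 were tested with a median log2 fold change of 1.57 and 0 were called, with 2 at an unadjusted p under 0.05 in edgeR and 2 called by DESeq2. Among the 10 precursor genes, 9 were tested with a median of 0.33 and 0 were called, with 3 at an unadjusted p under 0.05 and 2 called by DESeq2. Of the 4 gibberellin genes, 1 was called higher in 9311, while the 3 tested had a median of -0.07. The 3 transcription factor genes had a median of -0.29, and 0 of them were called by edgeR or DESeq2, with 1 at an unadjusted p under 0.05 in edgeR. Over all genes, 4745 of the 22554 tested had an unadjusted p under 0.05 in edgeR, and DESeq2 called 11.2%. Without HHZ replicate 3, 23 of the 28 were tested and 10 were called, all higher in 9311, of which 5 were other phytoalexin genes. In that fit 11.9% of all genes tested were called, 1591 higher in 9311 and 1133 higher in HHZ.

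Other genes shared the profile of the members over the 6 libraries. The profile was taken as the mean of the standardised log2(CPM + 1) of CPS2, KSL7, CYP76M7 and CYP76M8. Pearson's r of each of these with the profile lay between 0.958 and 0.999. Each gene is itself part of that mean, which raises its r, so these values do not test whether the members share a profile. Outside the members, 395 of the genes tested had r of at least 0.95, and the highest values were those of Os02g0550100 (r = 0.998) and Os11g0276300 (r = 0.996). Their log2 fold changes were 0.69 and 0.90, against 2.90 to 5.91 for the members in the profile. These correlations describe 6 libraries that fall into the 2 cultivars, so that any gene with a clear cultivar difference gains a high r, and with library totals in place of TMM scaling the number of genes was 226.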

How the data were processed

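Per the labels and the paper's methods, the authors trimmed the reads, aligned them with STAR to IRGSP-1.0 and deposited, for each library, unnormalized read counts of genes. The labels' processing notes name STAR 2.5.3a, and the paper a later release. The annotation release and the strand setting are not given in the sources used here. STAR's gene counting leaves out reads that align to several places, which lowers counts of near-identical genes.

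All genes were compared between cultivars by the quasi-likelihood test of edgeR 4.0.16 under R 4.3.3, with cultivar as the only term, TMM factors, a minimum count of 10 in filterByExpr and a Benjamini-Hochberg threshold of 0.05. The standard error is the log2 fold change divided by the square root of F. Alternatives were limma-voom in limma 3.58.1, DESeq2 1.42.0, RLE factors, library totals, no filter, at least 10 counts in every library, each library left out, and replicate numbers as a block. The methods were also run on simulated counts with the same dispersion for every gene. That run does not bear on the calls of the members, whose libraries spread widely within a cultivar. Intervals were computed with scipy 1.17.1.

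All 7 members are named, with at most 2 called neighbours per direction and the 2 genes most alike in profile; the other neighbours and Os02g0571000 were chosen after their values were seen. Members and lists were chosen with earlier results of these data known. Root marker genes were not checked, because the RefSeq table, with 39387 genes, matched 1 identifier of the deposited table.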

Additional observations from a re-analysis of the deposited data

How the results depend on the processing

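Of all genes tested, 1468 were called between the cultivars. DESeq2 gave 2885, requiring at least 10 counts in each library 563, and the fits without 1 library 761 to 2724, the highest without HHZ replicate 3. Of the 7 members, 3 were called. The same 3 were called with DESeq2, RLE factors, library totals and no filter, limma-voom called only KSL7, and so did the filter of at least 10 counts, which leaves only KSL7 and CYP76M7 to be tested. The fits without 1 library called 0 to 4 members, 0 without HHZ replicate 2 (3 at an unadjusted p under 0.05 in edgeR) and 4 without HHZ replicate 3. Of the further rows in the identifier range, 2 were called, with 3 in DESeq2, 1 in limma-voom, 0 with at least 10 counts in every library (edgeR, also 0 at an unadjusted p under 0.05) and 0 to 3 in the fits without 1 library, 0 without HHZ replicate 1 or 2 (2 and 3 at an unadjusted p under 0.05 in edgeR) and 3 without HHZ replicate 3. Of the 28 other diterpenoid genes, 2 were called, with 6 in DESeq2, 1 in limma-voom, 1 with library totals, 0 with at least 10 counts in every library (edgeR, 8 at an unadjusted p under 0.05) and 0 to 10 in the fits without 1 library, 10 without HHZ replicate 3, 2 without 9311 replicate 3 and 0 without any of the other 4 (4 to 8 at an unadjusted p under 0.05 in edgeR). Over all genes, 3878 of the 20127 tested with at least 10 counts in every library had an unadjusted p under 0.05 in edgeR. Without 9311 replicate 1 or 2 or HHZ replicate 1 or 2, the number was 3514 to 4135, of 22901 to 23025 genes tested. Beyond the filter, the causes were not tested.

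No pairing by replicate number was seen: deviations from the cultivar means correlated at -0.144, 0.0646 and -0.173 for replicates 1, 2 and 3. The sources used here do not say whether libraries with the same number shared a harvest or batch. A block by replicate number also leaves the test fewer residual degrees of freedom. With the replicate block, edgeR called 470 genes, 0 of the 7 members, 0 of the further rows and 0 of the 28 other genes, with 3, 3 and 6 of these at an unadjusted p under 0.05. Over all genes, 4038 of the 22554 tested had an unadjusted p under 0.05 in this edgeR fit. The adjusted p of the members tested then lay between 0.0718 and 0.281.

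Over all alternatives the adjusted p lay between 1.28e-11 and 0.0861 for CPS2, 4.09e-10 and 0.115 for KSL7, 3.28e-06 and 0.164 for CYP76M8, and 0.00859 and 0.453 for CYP76M7, the lowest values in DESeq2 except for CYP76M7, where it came without HHZ replicate 3. Library totals moved the median over all genes to a log2 fold change of -0.13, and 633 genes were then called higher in 9311 and 818 in HHZ, against 733 and 735 with TMM factors. The low counts of CPS2, CYP76M8 and CYP71Z7 in HHZ and of KSL5 and KSL6 in both cultivars limit the size of difference that can be stated.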
